A study of Mus musculus with 23 samples.

Results

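The TRAV3, TRAV4, TRAV5, TRAV8 and TRAV10 families of the T cell receptor alpha chain were followed in tumours of a mouse melanoma model. Their members were the entries of the TRA chain whose V name carries the family number 3, 4, 5, 8 or 10 directly after the V, with every copy and every joint name of copies included. This gave 6011 of 29047 TRA clonotypes, where a clonotype is one combination of V name, J name and CDR3 amino acid sequence. They made up 20.7% of the TRA clonotypes and 17.2% of the TRA counts, under 33 of 143 V names. TRAV8 held 1945 clonotypes, TRAV10 1630, TRAV4 937, TRAV3 787 and TRAV5 712. The families were chosen by name and not by a measured value.

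T cell receptor transcripts were sequenced in 23 libraries from an Nras-mutant syngeneic model, derived from the Nras Q61R melanoma line NIL with exposure to ultraviolet light. The groups were trametinib with BGB-283 (combination), trametinib alone, BGB-283 alone and no drug (control), each at D4 and at D11. Trametinib inhibits MEK and BGB-283 inhibits RAF. There were 3 libraries per group and 2 in control D11. All groups share the same tumour line, and the labels give neither the event from which days were counted nor the strain, age or number of animals. Whether each library is an animal of its own is not stated, and the p-values therefore speak for the spread among these 23 libraries alone. TRA counts per library ran from 37504 to 524431 with a median of 165373, and TRA clonotypes from 265 to 4424.

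A T cell receptor alpha chain is made by joining one V segment to one J segment, and the junction encodes CDR3, the loop that lies over the presented peptide. The V segment also supplies the other loops of the chain, which contact the presenting molecule. In the mouse the alpha locus holds duplicated blocks, so most V families exist as near-identical copies whose names end in a plain number or carry a D or an N. Rearrangement in the thymus can be repeated on the same chromosome, each time using V and J segments that lie farther apart. A T cell that divides passes its receptor to its progeny, so a clonotype with a large share of counts marks cells or transcripts that are abundant in the sample.

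The CDR3 sequences that carry the results are printed here as the deposited table gives them, from the conserved C to the closing F or W. The first set holds the clonotype of each family with the largest share of any library's TRA counts. The entry for TRAV3 is its second largest.
TRAV8-1V8D-1 with TRAJ33, largest TRAV8: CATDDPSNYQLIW
TRAV4N-3 with TRAJ12, largest TRAV4: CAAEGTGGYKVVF
TRAV10 with TRAJ26, largest TRAV10: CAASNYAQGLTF
TRAV5D-4V5N-4 with TRAJ23, largest TRAV5: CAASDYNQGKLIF
TRAV3N-3 with TRAJ9, second largest TRAV3: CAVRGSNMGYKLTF
The next set holds clonotypes found in many libraries, which share the end that TRAJ22 encodes.
TRAV8-1V8D-1 with TRAJ22, 13 libraries: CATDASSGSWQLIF
TRAV3N-3 with TRAJ22, 8 libraries: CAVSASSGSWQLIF
TRAV10 with TRAJ22, 8 libraries: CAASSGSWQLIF
TRAV5D-4V5N-4 with TRAJ22, 6 libraries: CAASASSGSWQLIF
TRAV4N-4 with TRAJ22, 5 libraries: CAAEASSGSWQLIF

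TRAV8 was the most used of the 5 families. It took a mean of 7.22% ± 5.26 of the TRA counts of a library (SD, n = 23) and ranked 6 among 21 TRAV families. TRAV10 followed with 4.30% ± 2.57 at rank 8, then TRAV4 with 2.40% ± 2.33 at rank 10, TRAV5 with 2.19% ± 1.84 at rank 11 and TRAV3 with 1.03% ± 0.825 at rank 13. The neighbours TRAV4 and TRAV5 differed by far less than their spread. All 5 families were found in all 23 libraries. Together they held 6.76% to 31.7% of a library's TRA counts, but 17.7% to 26.8% of its clonotypes. The share of counts therefore varied over a wider range than the share of clonotypes.

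Within each family a few copies carried most counts, and the third name given for a family was added after its value was seen. TRAV10 held a mean of 74.6% of its family's counts over the libraries, and the joint name TRAV10DV10N held 24.6%. In the TRAV8 family TRAV8-1V8D-1 held 61%, TRAV8N-2 21.6% and TRAV8-2 16.4%. TRAV3N-3 held 62.2% of the TRAV3 family, with 19.0% under TRAV3-3V3D-3 and 16.2% under TRAV3-1. The TRAV5 family lay mainly in TRAV5D-4V5N-4 with 58.4%, then TRAV5-1 with 21.5%. The TRAV4 family was the most divided, with 37.9% in TRAV4N-4, 33.3% in TRAV4D-3 and 23.9% in TRAV4N-3. TRAV4D-2, chosen after its value was seen, which the mouse annotation lists as a pseudogene, held 0.239%. A joint name means that the copies were not told apart by the authors' processing. The same J name and CDR3 stood under several V names of a family within a library for 9.13% of TRAV4 sequences, which held 42.6% of the family's counts. For TRAV10 this was 1.5% of sequences and 10.4% of counts, and for TRAV8 2.54% and 14.5%. For TRAV5 it was 1.61% and 30.6%, and for TRAV3 2.30% and 28.8%. The other TRAV families had 4.35% of sequences and 39.2% of counts, so the TRAV4 share of counts was near theirs. Counts of single copies are therefore uncertain, and the family sum is the steadier unit.

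The share of TRA counts of each family was then compared between treatments and days. No family of the 5 passed in any of the 6 contrasts by edgeR's quasi-likelihood test with Benjamini-Hochberg adjustment over 21 TRAV families. The SE of their log2 folds ran from 0.373 to 0.875, so not passing does not show that a share stayed the same. The count at an unadjusted p under 0.05 was also 0 of 5 in every contrast, and DESeq2 called 0 as well. Over all 21 families 0% were called in each of the 5 treatment contrasts. In D11 against D4 the called share was 9.52%, from 2 families outside these 5. Bulk RNA does not tell more T cells of a family from more receptor RNA per cell.

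TRAV8 had the widest range. It took 2.79% to 14.0% of TRA counts in combination libraries (median 5.11%, n = 6), 2.25% to 15.6% in trametinib libraries (median 5.58%, n = 6), 3.33% to 10.6% in BGB-283 libraries (median 4.07%, n = 6) and 5.15% to 23.1% in control libraries (median 5.68%, n = 5). The groups overlapped throughout, and the control mean of 11.2% ± 8.22 rested on D4, where the 3 libraries had 5.15%, 16.6% and 23.1%. The 2 control D11 libraries had 5.55% and 5.68%. In BGB-283 D4 the 3 libraries had 3.65%, 4.18% and 3.97%, all below every control D4 library. The edgeR log2 fold of BGB-283 against control was -1.93 at D4 and 0.18 at D11. The difference of these folds was 2.11 (edgeR interaction, adjusted p = 0.303), which did not pass.

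TRAV10 had 1.92% to 8.54% of TRA counts in combination libraries (median 5.40%), 3.62% to 7.27% in trametinib libraries (median 5.44%), 0.773% to 10.3% in BGB-283 libraries (median 3.09%) and 1.24% to 4.03% in control libraries (median 2.53%). Each median of a drug group lay above that of the control, while the ranges overlapped. The log2 fold was 1.02 (SE 0.61) for combination against control (edgeR, adjusted p = 0.67) and 1.09 (SE 0.61) for trametinib against control (edgeR, adjusted p = 0.564). These were the largest folds of the 5 families against control in these 2 contrasts, and neither passed the test.

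TRAV4 had 0.272% to 10.8% in combination libraries (median 2.28%), 0.748% to 5.97% in trametinib libraries (median 1.75%), 0.659% to 3.99% in BGB-283 libraries (median 1.24%) and 0.485% to 2.89% in control libraries (median 1.60%). In trametinib tumours the 3 D11 libraries had 5.97%, 4.69% and 2.12%, all above the D4 libraries with 1.37%, 0.748% and 0.954%. This order did not hold in BGB-283 tumours, where the D11 libraries had 1.28%, 2.32% and 0.659% and the D4 libraries 1.09%, 1.20% and 3.99%. Over the 4 treatments D11 against D4 gave a log2 fold of 0.87 (SE 0.48; edgeR, adjusted p = 0.426).

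TRAV5 had 0.585% to 7.65% in combination libraries (median 1.62%), 0.790% to 5.91% in trametinib libraries (median 2.06%), 0.422% to 2.50% in BGB-283 libraries (median 0.845%) and 0.337% to 3.49% in control libraries (median 2.10%). TRAV3, the smallest family, had 0.316% to 1.95% in combination libraries (median 0.599%), 0.508% to 3.45% in trametinib libraries (median 1.25%), 0.120% to 0.864% in BGB-283 libraries (median 0.5%) and 0.424% to 2.30% in control libraries (median 1.06%). Both families had their lowest median in BGB-283 tumours and overlapped between all treatments. For BGB-283 against control the log2 fold was -0.86 (SE 0.71) for TRAV5 (edgeR, adjusted p = 0.783) and -1.41 (SE 0.87) for TRAV3 (edgeR, adjusted p = 0.451). Counting error was small beside these ranges: the widest Wilson interval at the 95% level reached 0.232 percentage points to either side. It covers the sampling of counts alone, and counts are not independent molecules.

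**Figure D1:**
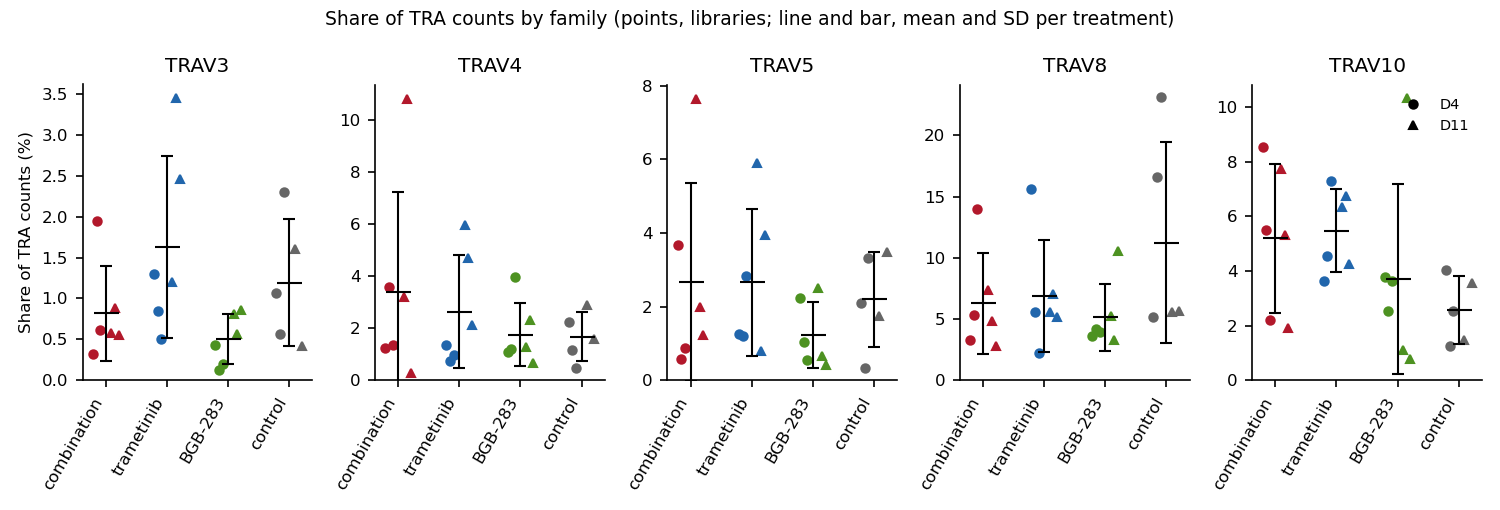
Share of TRA counts (%, vertical axis) of each family in the 4 treatments; points are libraries (circles D4, triangles D11), and the line and bar are the mean and SD. The TRAV8 control libraries reach 23.1%, one TRAV4 combination library stands at 10.8%, and the treatments overlap in every family.

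Single clonotypes held a large part of a family's counts in many libraries. The largest clonotype of TRAV8 in a library held a median of 38.0% of the family's counts, with a range of 6.10% to 75.0% over the 23 libraries. The median was 52.8% for TRAV5, 41.3% for TRAV4, 31.4% for TRAV10 and 23.4% for TRAV3. When the clonotypes at 1% or more of a library's TRA counts were taken out of the family's sum, TRAV8 lay at 1.29% to 5.60% of TRA counts over all libraries. Its mean was then 3.48% ± 1.22 with the combination, 4.10% ± 1.45 with trametinib and 3.08% ± 0.737 with BGB-283 (n = 6 each), against 3.01% ± 1.33 in controls (n = 5). The SD over all 23 libraries, as a percentage of the mean, was 35.1% without these clonotypes and 72.8% with them. For TRAV4 it was 41.1% without and 97.1% with them, for TRAV5 47.9% and 84.1%, for TRAV10 39.2% and 59.7%. TRAV3 went the other way, with 84.4% without and 80.3% with them, and held 2 such clonotypes in all. Taking out clonotypes by their size removes high shares by construction, so a lower SD is no evidence on the source of the spread, and these values are descriptions.

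At equal TRA counts the number of distinct clonotypes differed between some treatments, but these calls depended on the unit and on single libraries, as given below. Each library was thinned to 37504 TRA counts, the total of the shallowest library, and the distinct clonotypes of each family were counted. Before thinning, combination D4 libraries had 416714 to 524431 TRA counts and control libraries 37504 to 227206. Equal counts need not be equal numbers of sequenced molecules, so thinning by counts may not take out all of this difference in depth. All 5 families held more clonotypes in combination tumours than in control tumours, as did most other TRAV families. The comparison used a two-sided exact permutation test of log2(number + 1) within days, with Benjamini-Hochberg adjustment over 21 families. In combination against control 5 of 5 families passed, beside 18 of all 21 families, or 85.7%. Since most families passed, the count says nothing particular of these 5.

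TRAV10 had 117 ± 47.4 clonotypes at equal counts in combination libraries (n = 6) and 22.8 ± 16.8 in control libraries (n = 5). At D4 the combination libraries had 118.8, 169.3 and 145 TRAV10 clonotypes, against 12, 11 and 37.5 in control D4. At D11 they had 78.6, 146.5 and 43.9, against 9 and 44.4 in control D11, so the groups overlapped at D11 alone. The fold was 5.48 (exact permutation test, adjusted p = 0.0175). TRAV8 had 151 ± 64.4 clonotypes in combination and 41.8 ± 26.7 in control libraries, a fold of 3.77. The fold was 4.58 for TRAV4, 4.02 for TRAV5 and 2.87 for TRAV3, each with an adjusted p of 0.0175 by the exact permutation test. The smallest p this test can give is 0.005.

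Trametinib alone was set against control in the same way. TRAV3 had 35.8 ± 11.6 clonotypes in trametinib and 13.5 ± 4.55 in control libraries, a fold of 2.50 (exact permutation test, adjusted p = 0.02625). TRAV4 was 2.36-fold higher with the same adjusted p by the exact permutation test, and TRAV10 3.46-fold higher (exact permutation test, adjusted p = 0.0286). TRAV8 with a fold of 2.23 (exact permutation test, adjusted p = 0.0679) and TRAV5 with 1.91 (exact permutation test, adjusted p = 0.128) did not pass. Of all families 71.4% passed, against 3 of these 5.

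In BGB-283 against control 0 of 5 families passed the exact permutation test, and 0% of all 21, with 5 of the 21 at an unadjusted p under 0.05. TRAV10 had 49.6 ± 20.1 clonotypes in BGB-283 and 22.8 ± 16.8 in control libraries, a fold of 2.40 (exact permutation test, adjusted p = 0.21). Combination tumours stood above BGB-283 tumours in all 5 families, beside 85.7% of all families. TRAV4 had 69.1 ± 31.6 clonotypes in combination and 23.4 ± 8.95 in BGB-283 libraries, a fold of 2.65 (exact permutation test, adjusted p = 0.02625). TRAV5 was 2.55-fold, TRAV8 2.33-fold, TRAV10 2.28-fold and TRAV3 2.20-fold higher, with the same adjusted p by the exact permutation test.

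Combination against trametinib gave 0 of 5 families and 0% of all 21, with 1 of the 21 at an unadjusted p under 0.05. The largest fold of the 5 was that of TRAV5, 2.10 (exact permutation test, adjusted p = 0.225). D11 against D4 also gave 0 of 5 and 0% of all, with 0 of 21 at an unadjusted p under 0.05, and folds of the 5 families lay between 0.857 and 1.06.

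**Figure D2:**
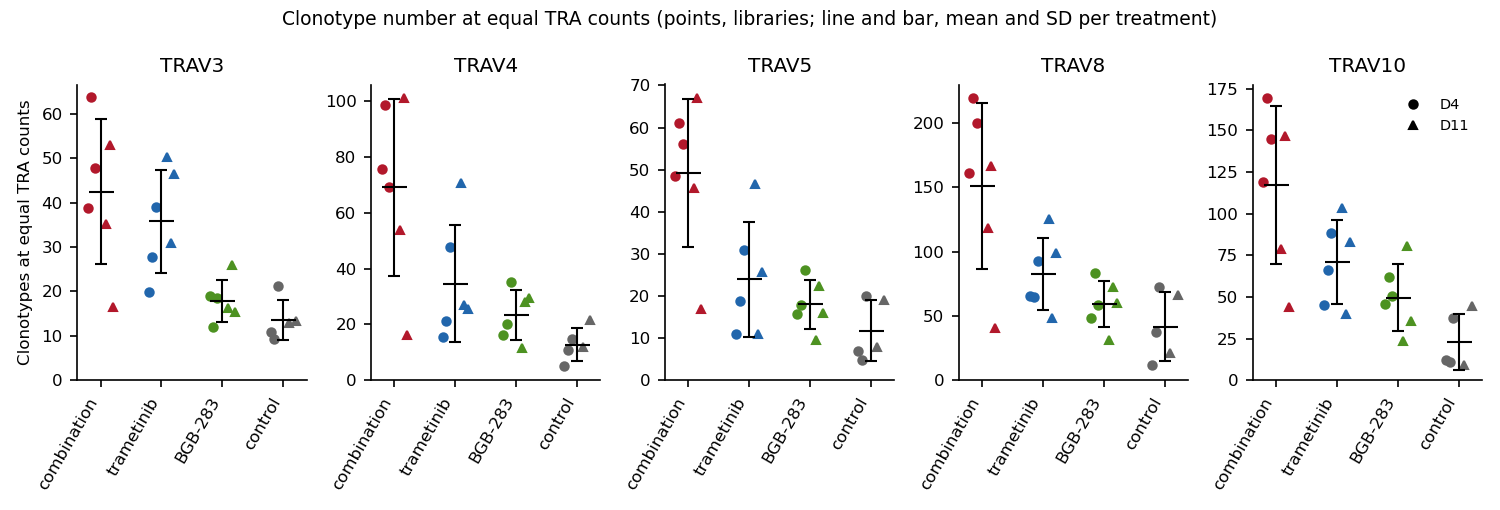
Distinct clonotypes per family after thinning to 37504 TRA counts (vertical axis, number) in the 4 treatments; points are libraries (circles D4, triangles D11), and the line and bar are the mean and SD. Combination libraries lie highest on average in every family and control libraries lowest, with one combination D11 library low throughout.

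These counts of calls depended on single libraries and on the unit. Without control D11 replicate 1, the shallowest library, 0 of 5 families passed in combination against control, with adjusted p-values of 0.0583 to 0.0926 by the exact permutation test. The log2 difference was then 1.51 for TRAV3, 2.00 for TRAV4, 1.72 for TRAV5, 1.51 for TRAV8 and 1.91 for TRAV10, in place of 1.52, 2.20, 2.01, 1.91 and 2.45 with it. The same omission left 0 of 5 in trametinib against control. Of the 3 families called there, TRAV3 had a log2 difference of 1.32 with and without that library, TRAV4 1.04 without and 1.24 with it, and TRAV10 1.24 without and 1.79 with it. The values pile up at 20 counts, and estimated molecules were taken from this as each count divided by 20 and rounded up; no source states this divisor, and whether it is right could not be settled. For example, at 2013 estimated molecules per library TRAV8 had 40.5 clonotypes in combination D4 replicate 1, in place of 161 at equal counts. Control D11 replicate 1 had 21 in both units. In estimated molecules 0 of 5 passed in combination against control and 0 of 5 in combination against BGB-283, while 4 of 5 passed in trametinib against control. In molecules the log2 difference of combination against control was 1.19 for TRAV10 (exact permutation test, adjusted p = 0.0788) and 0.36 for TRAV3 (exact permutation test, adjusted p = 0.158). Combination against BGB-283 gave 0 of 5 without combination D11 replicate 2 or without replicate 1 of BGB-283 D11.

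As a share of all TRA clonotypes of a library, each counted once, the families differed little. Together they made up 20.7% ± 1.41 with the combination, 20.6% ± 1.21 with trametinib and 19.5% ± 1.48 with BGB-283 (n = 6 each), against 20.5% ± 3.67 in controls (n = 5). TRAV10 made up 5.78% ± 0.389 in combination and 4.27% ± 1.56 in control libraries. TRAV3 made up 2.31% ± 0.244 in combination and 3.13% ± 1.04 in control libraries. By edgeR on clonotypes counted once, 0 of 5 families passed in every contrast.

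Single V names were tested with the same edgeR model, on 118 of 143 names that passed the filter on low counts. Of the 33 names of the 5 families 27 passed that filter. None of the 27 passed in any contrast. At an unadjusted p under 0.05 there were 1 in combination against control, 4 in trametinib against control, 3 in BGB-283 against control, 2 in combination against trametinib, 1 in combination against BGB-283 and 2 in D11 against D4. Over all 118 names the called share was 0% in combination against control, trametinib against control, combination against trametinib and D11 against D4. It was 1.69% in BGB-283 against control and 0.847% in combination against BGB-283, from names outside the 5 families. The median log2 fold in combination against control was 0.13 over the 27 names and 0.21 over all 118.

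TRAV10DV10N, among the most used names, had 0.249% to 6.14% of TRA counts in combination libraries and 0.133% to 1.11% in control libraries, overlapping. Its log2 fold was 2.16 (SE 1.03; edgeR, adjusted p = 0.341), which did not pass.

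DESeq2 called a few names that edgeR did not. Each of these was singled out after its values were seen. TRAV8-2 had 0.0188% to 0.328% of TRA counts in BGB-283 libraries and 0.0744% to 5.27% in control libraries, overlapping, with a log2 fold of -3.19 (edgeR, adjusted p = 0.231; DESeq2, adjusted p = 0.0379). TRAV3-3V3D-3 had 0.0254% to 0.0858% in combination libraries and 0.0734% to 1.02% in trametinib libraries, where the ranges barely overlapped. Its log2 fold was -2.72 (edgeR, adjusted p = 0.574; DESeq2, adjusted p = 0.0261). The same name had a log2 fold of 2.04 in D11 against D4 (edgeR, adjusted p = 0.213; DESeq2, adjusted p = 0.0187). The other DESeq2 calls were TRAV4D-2, TRAV8D-2 and TRAV5-4, which were above 0 in 7, 13 and 6 of 23 libraries. For names at 0 in whole groups a fitted fold is no bound.

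Large clonotypes, at 1% or more of a library's TRA counts, numbered 61 in the 5 families among 337 in all, or 18.1%. TRAV8 gave 20, TRAV10 17, TRAV5 12, TRAV4 10 and TRAV3 2. They numbered 19 of 91 with the combination, 17 of 81 with trametinib and 11 of 87 with BGB-283, against 14 of 78 in controls. TRAV10 gave 5 with the combination, 7 with trametinib and 4 with BGB-283, against 1 in controls. TRAV8 gave 5, 4 and 4 in those drug groups, against 7 in control libraries. These numbers were not tested.

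The largest was the TRAV8-1V8D-1 clonotype with TRAJ33, printed above, at 15.1% of the TRA counts of control D4 replicate 3 (95% Wilson interval 14.9% to 15.2%). It was found in that library alone. The library also held a TRAV8-1V8D-1 clonotype with TRAJ35 at 5.56%, so that 2 clonotypes made up most of its TRAV8 share of 23.1%. In control D4 replicate 2 the TRAV8 share of 16.6% rested on TRAV8N-2 with TRAJ23 at 9.75% (9.60% to 9.91%) and TRAV8-2 with TRAJ12 at 4.30%. The highest TRAV8 share of a trametinib library, 15.6% in D4 replicate 1, rested on TRAV8-2 with TRAJ11 at 9.39% (9.21% to 9.58%). In combination D4 replicate 3 a TRAV8-1V8D-1 clonotype with TRAJ49 held 9.11% (9.02% to 9.19%). The clonotypes with TRAJ35, TRAJ12 and TRAJ49 lie outside the 3 largest of the family and were chosen after their values were seen. The sequences of the clonotypes with TRAJ23, TRAJ11 and TRAJ49 follow, since they show different J segments behind like starts.
TRAV8N-2 with TRAJ23, control D4 replicate 2: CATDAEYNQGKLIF
TRAV8-2 with TRAJ11, trametinib D4 replicate 1: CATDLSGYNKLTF
TRAV8-1V8D-1 with TRAJ49, combination D4 replicate 3: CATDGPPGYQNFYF

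In TRAV10 the clonotype with TRAJ26 printed above held 7.17% of the TRA counts of replicate 2 of BGB-283 D11 (7.04% to 7.30%) and was found in 6 libraries. TRAV10DV10N with TRAJ21 held 5.51% in combination D4 replicate 1 (5.44% to 5.58%). In TRAV5 the TRAV5D-4V5N-4 clonotype with TRAJ23 held 4.71% in trametinib D11 replicate 1 (4.63% to 4.80%), and one with TRAJ15 held 3.07% in combination D4 replicate 1 (3.02% to 3.12%). The largest TRAV3 clonotype, TRAV3N-3 with TRAJ11 and a CDR3 of 15 residues, held 1.91% in control D4 replicate 3 (1.85% to 1.97%). The second held 1.15% in combination D4 replicate 2. TRAV3 thus gave no clonotype at 1% in trametinib or BGB-283 libraries.

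Of 56 distinct large clonotypes in the 5 families, 4 were large in 2 or more libraries, against 15 of 237 in the other TRAV families. These counts treat each V name as separate, so they depend on how copies were named. For example, one CDR3 of 13 residues with TRAJ6 held 2.60% under TRAV10 in trametinib D11 replicate 2. The same CDR3 with TRAJ6 held 1.31% under TRAV10DV10N in BGB-283 D4 replicate 2, and is not among the 4. This example was chosen after its values were seen. The TRAV4N-3 clonotype with TRAJ12 was large in 3 libraries: it held 8.54% in combination D11 replicate 2, 1.78% in combination D11 replicate 1 and 3.08% in BGB-283 D4 replicate 3. Under this V name it was also at 0.711% in BGB-283 D11 replicate 2 and was listed in no trametinib or control library. The same CDR3 with TRAJ12 stood under TRAV4N-4 in 2 libraries, at up to 0.0124%. It stood under TRAV4D-3 in combination D4 replicate 3 at 0.0103%, and at lower shares under TRAV4-2 and TRAV4D-2. These entries were added after their values were seen. TRAV8N-2 with TRAJ23 held 3.07% in trametinib D4 replicate 2 and 1.38% in combination D11 replicate 3, and was found at lower shares in 3 more libraries. TRAV5D-4V5N-4 with TRAJ15 held 2.64% in trametinib D11 replicate 3 and 1.36% in combination D11 replicate 1, and was found in 8 libraries. TRAV10 with TRAJ15 carried the same CDR3 as that TRAV5 clonotype, at 1.22% in combination D11 replicate 1 and 1.11% in BGB-283 D4 replicate 3. The labels do not say whether libraries shared a sequencing run. The sequences show that one CDR3 was recorded under different V families.
TRAV8N-2 with TRAJ23, large in 2 libraries: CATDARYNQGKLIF
TRAV5D-4V5N-4 and TRAV10 with TRAJ15, large in 2 libraries each: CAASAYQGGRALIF

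**Figure D3:**
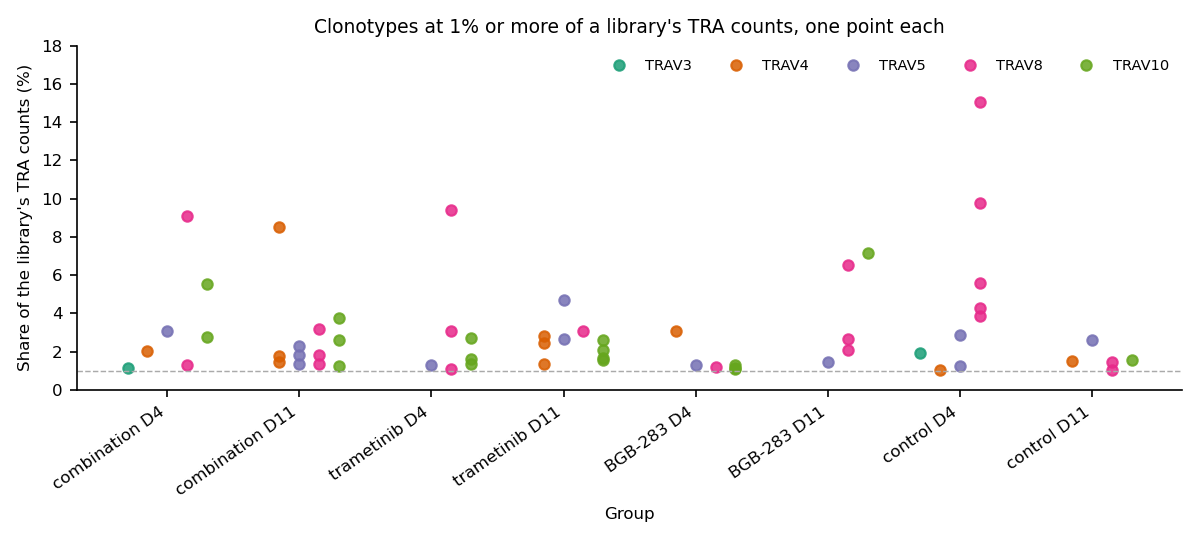
Share of the library's TRA counts (%, vertical axis) of each clonotype at 1% or more (dashed line), by group and coloured by family. The 4 highest TRAV8 points lie in control D4, trametinib D4 and combination D4, led by 15.1%, and the highest TRAV4 point, 8.54%, lies in combination D11.

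The first residues of CDR3 come from the V segment, and some of the families had starts that were rare elsewhere. In TRAV8 79.6% of clonotypes began with CAT, against 0.472% of all other TRA clonotypes, and 40.3% began with CATD, against 0.0221%. TRAV3 began with CAV in 90.2%, against 14.1% of other TRA clonotypes. TRAV10, TRAV4 and TRAV5 shared a start and are not separated by it: CAA opened 92.1% of TRAV10, 83.1% of TRAV4 and 71.9% of TRAV5 clonotypes, against 33.0% of TRA clonotypes outside TRAV10. The longer start CAAS opened 59.9% of TRAV10 and 50.8% of TRAV5 clonotypes. In TRAV4 46.6% began with CAAE, against 0.366% of other TRA clonotypes. TRAV5 was of mixed kind. TRAV5-1 began with CSA in 89.9% of its clonotypes, whereas the joint name TRAV5D-4V5N-4 began with CAA in 89.1%. Within TRAV4, TRAV4-2 stood apart with CAV in 82.9%. Since the V name was assigned from the same reads, these starts describe the families and were not tested.

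CDR3 length, counted in residues, was compared with the other TRA clonotypes of the same library. Each clonotype counted once, and a two-sided sign-flip permutation test ran over libraries with 10 or more clonotypes of the family. TRAV8 had the shortest CDR3, 12.94 ± 0.241 residues, against 13.63 ± 0.0686 for other TRA clonotypes (SD over 23 libraries). The difference of -0.69 residues was negative in 22 of 23 libraries (permutation test, adjusted p = 3.2e-05). TRAV4 was shorter by a difference of -0.38 residues, in 20 of 22 libraries (permutation test, adjusted p = 3.2e-05). TRAV10 had a difference of -0.26 residues, negative in 18 of 22 libraries (permutation test, adjusted p = 8e-05). TRAV3 with -0.08 (permutation test, adjusted p = 0.239) and TRAV5 with -0.05 (permutation test, adjusted p = 0.621) did not pass. Over all 16 families tested 75% were called, so that 3 of 5 is no higher than the background. TRAV8 lengths were 12.89 ± 0.119 residues with the combination, 12.89 ± 0.242 with trametinib and 12.96 ± 0.209 with BGB-283, against 13.02 ± 0.396 in controls.

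The J partner was read as the TRAJ number. In the mouse RefSeq annotation these numbers fall along the chromosome in 59 of 59 neighbouring pairs of TRAJ genes, so a high number marks a J segment on the side of the V cluster. TRAV5 paired with higher J numbers: its mean was 32.0 ± 3.26, against 27.7 ± 0.885 for other TRA clonotypes of the same libraries. The difference of 4.37 was positive in 18 of 20 libraries (permutation test, adjusted p = 8e-05). TRAV8 paired with lower numbers, 25.2 ± 2.01 against 27.6 ± 1.37. The difference of -2.41 was negative in 20 of 23 libraries (permutation test, adjusted p = 0.0014). TRAV3 with -0.55 (permutation test, adjusted p = 0.395), TRAV4 with 0.67 (permutation test, adjusted p = 0.535) and TRAV10 with -0.43 (permutation test, adjusted p = 0.547) did not pass. Of all 16 families 43.8% were called. Weighted by counts in place of clonotypes, 0 of the 5 passed: the TRAV5 difference was 3.43 (permutation test, adjusted p = 0.194) and that of TRAV8 turned to 0.23 (permutation test, adjusted p = 0.913).

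**Figure D4:**
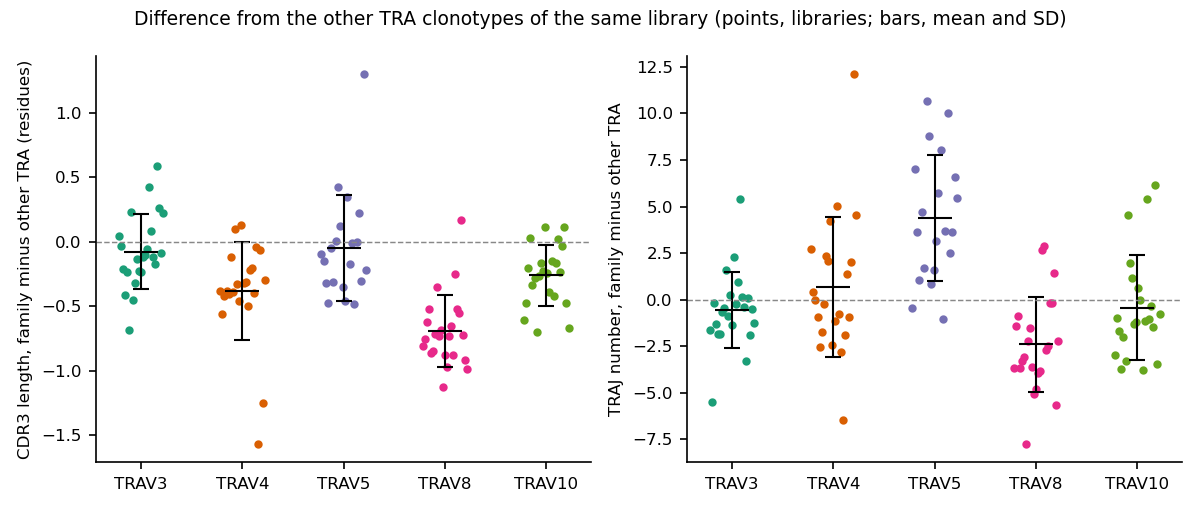
Difference between a family's mean and that of the other TRA clonotypes of the same library in CDR3 length (left, residues) and TRAJ number (right); points are libraries, and bars are the mean and SD. TRAV8 lies below 0 in 22 of 23 libraries for length, and TRAV5 above 0 in 18 of 20 for TRAJ number.

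The V names of one family differed in their mean TRAJ number. These means over clonotypes are descriptions, and names were singled out after their values were seen. Joint names can overlap: TRAV5-4V5D-4V5N-4 contains both copies of TRAV5D-4V5N-4, and TRAV4-3V4D-3 contains TRAV4D-3. A difference between such names cannot be assigned to single copies. TRAV5-4V5D-4V5N-4 had a mean TRAJ number of 41.5, TRAV5D-4V5N-4 27.5 and TRAV5-1 22.9. In TRAV4, TRAV4-3V4D-3 had 38.3 and TRAV4D-3 35.9, against 24.3 for TRAV4N-4 and 19.3 for TRAV4N-3. In TRAV3, TRAV3-3V3D-3 had 35.7, TRAV3-1 28.5 and TRAV3N-3 21.6. The SD over clonotypes of these names ran wide, for example 11.2 for TRAV5-4V5D-4V5N-4 and 13.9 for TRAV5D-4V5N-4. Along the chromosome TRAV5-4 and TRAV8-2 are genes 112 and 116 of 130 TRAV genes, and TRAV8-2 had a mean TRAJ number of 21.7, far from that of TRAV5-4V5D-4V5N-4. That joint name also covers TRAV5D-4 and TRAV5N-4, which are genes 40 and 74. TRAV10 is gene 92, with a mean of 28.2, and the joint name TRAV10DV10N had 23.

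**Figure D5:**
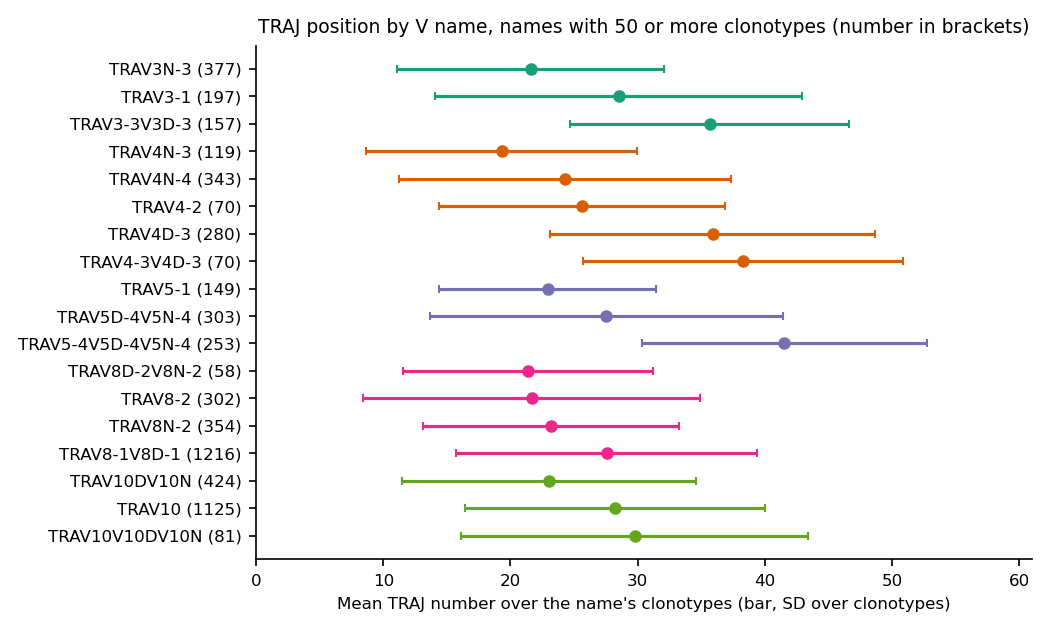
Mean TRAJ number (horizontal axis) for each V name of the 5 families with 50 or more clonotypes, with the number of clonotypes in brackets; bars are the SD over clonotypes. TRAV4N-3, TRAV3N-3 and TRAV4N-4 lie between 19.3 and 24.3, and TRAV5-4V5D-4V5N-4 lies highest at 41.5.

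By the mean of its shares over libraries, TRAJ22 was the most frequent partner of TRAV8, TRAV3, TRAV4 and TRAV5. It made up 14.1% ± 8.61 of TRAV8 clonotypes in a library, 11.4% ± 6.85 of TRAV3, 8.11% ± 4.32 of TRAV4 and 6.75% ± 6.95 of TRAV5. Among all other TRA clonotypes it made up 7.46% ± 1.44 (n = 23). TRAV10 was led by TRAJ21 with 8.33% ± 5.71 and TRAJ15 with 8.09% ± 8.40, then TRAJ22 with 8% ± 3.89. The next partners were TRAJ23 with 8.52% and TRAJ30 with 6.61% for TRAV8, and TRAJ30 with 6.71% and TRAJ26 with 5.51% for TRAV3. TRAV4 was next with TRAJ12 at 6.58% and TRAJ49 at 6.21%, and TRAV5 with TRAJ49 at 6.15% and TRAJ15 at 6.13%. Over distinct clonotypes of the whole series the leading partner differed in 2 families. TRAV4 was led by TRAJ12 with 72 clonotypes, ahead of TRAJ22 with 70. TRAV5 was led by TRAJ15 with 47 and TRAJ49 with 46, ahead of TRAJ22 with 42. Lower places differed in the other families too: in TRAV10, TRAJ23 with 122 clonotypes stood ahead of TRAJ15 with 110 and TRAJ22 with 95. TRAJ12 made up 7.68% of TRAV4, against 2.91% of other TRA clonotypes, a ratio of 2.64 that was singled out after its value was seen.

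Clonotypes shared between libraries were about as frequent as in other families. In 2 or more libraries 8.63% of the 5 families' clonotypes were found, against 8.50% of the others. The share was 10.9% in TRAV8, 10.6% in TRAV10, 6.94% in TRAV4, 4.96% in TRAV3 and 4.35% in TRAV5, so TRAV8 and TRAV10 lay above the other 3. The most widely found was the TRAV8-1V8D-1 clonotype with TRAJ22 printed above, in 13 libraries: 6 of 6 combination, 5 of 6 trametinib and 1 of 6 BGB-283 libraries, against 1 of 5 control libraries. It held 0.00735% to 0.137% of TRA counts where found, so under this V name it was shared and small. The same CDR3 with TRAJ22 also stood under TRAV8-2, in 5 libraries, with 1.04% of TRA counts in control D11 replicate 1. That entry was added after its value was seen. Detection follows the number of clonotypes in a library, which was higher in combination than in control tumours, and the difference between treatments was not tested.

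Of 153 clonotypes of the 5 families found in 3 or more libraries 44 used TRAJ22, or 28.8%, whereas 6.57% of the 5492 found in a single library did. In the other TRAV families the shares were 16.5% of 564 and 5.86% of 21078. TRAV8 gave 70 of the 153 and TRAV10 51. Among those found in 3 or more libraries TRAJ22 was used by 22 of 70 in TRAV8 and 13 of 51 in TRAV10. It was used by 5 of 8 in TRAV3 and 3 of 8 in TRAV5. In TRAV4 it was used by 1 of 16 (6.25%), and by 6.88% of those found in a single library. Numbers as small as those of TRAV3, TRAV4 and TRAV5 do not settle whether a family differs. Over the 5 families the mean CDR3 length was 13.08 ± 0.970 residues for clonotypes found in 3 or more libraries. It was 13.22 ± 1.31 for those found in 1 (SD over clonotypes). In the sequences with TRAJ22 printed above, the end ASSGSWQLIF follows CATD in TRAV8, CAVS in TRAV3, CAAE in TRAV4 and CAAS in TRAV5. In the TRAV10 sequence, of 12 residues, that end follows CA, so its start CAAS overlaps the shared end. In the families other than TRAV8, widely found clonotypes with other J segments included TRAV4N-4 with TRAJ15 in 7 libraries, TRAV4D-3 with TRAJ50 in 7, TRAV10 with TRAJ21 in 7 and TRAV3N-3 with TRAJ13 in 4.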

How the data were processed

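Total RNA was taken with kits of QIAGEN (AllPrep) and Ambion (mirVana), and the library kit was QIAseq Immune Repertoire, per the labels. Values in the deposited table are counts for each chain, V name, J name and CDR3 sequence, as the authors made them, not scaled between libraries. GRCh38, which is a human build, is the one in the submitters' processing notes although the samples are from mice, so no coordinates were used. The sources used here do not give the aligner, the caller of clonotypes or its filters. The lowest value above 0 is 3, and 92 TRA entries with an unresolved residue (0.00923% of TRA counts) were left out. Of 33 V names 15 are single, and all 15 matched the RefSeq mouse annotation (GRCm38.p6), as did the 25 segments within all names. One joint name of TRAV8 and TRAV9 copies, with 15 counts, was kept in TRAV8.

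Counts per family and per V name were tested with edgeR 4.0.16 (R 4.3.3; quasi-likelihood, 8 groups, TRA total as library size, TMM off, filterByExpr), and DESeq2 1.42.0 as an alternative. The biological coefficient of variation was 0.970 for families and 1.32 for V names. Clonotype number is the mean of 100 seeded thinning draws; its folds are on the log2(number + 1) scale. Sign-flip tests used 100000 resamples, whose smallest p is 1e-05. The threshold was an adjusted p under 0.05. Scripts were tested on simulated data. Equal replicate numbers were treated as names alone, since in 2 of 28 pairs of groups every same-number correlation was over 0.1, with a mean of 0.0105.

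V names given are the most used 2 of each family, clonotypes the 3 largest and the 3 most widely found, and J partners the top 3; others are marked as chosen after their values were seen. The members and lists were chosen with earlier results of these data known. The table lists receptor chains alone, so no marker of another cell type could be read.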

Additional observations from a re-analysis of the deposited data

Results flagged for a closer look

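In 5 of 20 sets of libraries of a family and treatment, one library stood apart from the rest by its gap relative to the range (Dixon's criterion). For normally distributed values chance flags about 1 in 20. Shares cannot fall below 0 and all 5 flagged libraries were high, so that rate need not hold here. Whether 5 of 20 is an excess can therefore not be judged. TRAV3 in combination D4 replicate 2 had 1.95% of TRA counts, where the next combination library had 0.882%. TRAV4 in combination D11 replicate 2 had 10.8%, where the next had 3.59%. Its TRAV4N-3 clonotype with TRAJ12 alone held 8.54%. TRAV8 in trametinib D4 replicate 1 had 15.6%, where the next trametinib library had 7.03%, and its TRAV8-2 clonotype with TRAJ11 held 9.39%. TRAV8 in BGB-283 D11 replicate 3 had 10.6%, where the next BGB-283 library had 5.25%, and TRAV8N-2 with TRAJ26 held 6.53%. TRAV10 in BGB-283 D11 replicate 2 had 10.3%, where the next had 3.78%, and TRAV10 with TRAJ26 held 7.17%. In none of these 5 families did the difference between days in a treatment contrast pass the edgeR interaction test.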

How the results depend on the processing

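The number of the 5 families called by share of counts stayed at 0 in all 6 contrasts under every alternative run, the replicate block included (0 in each). For V names it stayed at 0 of 27 except by DESeq2, which called 1 in combination against control, 2 in trametinib against control, 1 in BGB-283 against control, 3 in combination against trametinib and 2 in D11 against D4. By clonotype number, with the replicate block 5, 3 and 5 families passed in combination against control, trametinib against control and combination against BGB-283, as without it. In estimated molecules, whose divisor is inferred from the values and not settled, 0 passed in combination against control and 0 in combination against BGB-283. Without both control libraries with the fewest TRA counts, an alternative chosen after seeing the data, 0 passed in combination against control and 0 in trametinib against control. Leaving out 1 library at a time gave 0 to 5 in combination against control, with 0 without control D11 replicate 1. It gave 0 to 4 in trametinib against control, with 0 without control D11 replicate 1 and 1 without trametinib D11 replicate 1 or 3. It gave 0 to 1 in BGB-283 against control, with 1 without BGB-283 D11 replicate 1. In combination against BGB-283 it gave 0 to 5: 0 without replicate 2 of combination D11 or replicate 1 of BGB-283 D11, 2 when replicate 1 of BGB-283 D4 was left out and 3 when replicate 1 of combination D11 was. Fewer libraries leave fewer permutations, and other causes were not tested. Weighted by counts, 0 families passed by TRAJ number, and the TRAV8 difference turned to 0.23. Of 552 values of such counts under alternatives 533 stayed within 1.5 times the count reported. Most of the counts reported were 0, where this means staying at 0, so the total says little of the counts above 0. By clonotype number the count moved under 3 alternatives in combination against control, 4 in trametinib against control and 5 in combination against BGB-283. Each of these 3 counts fell to 0 under some of them.

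Depth limits what can be read: the shallowest library had 37504 TRA counts, values under 3 are absent from the table, and 40.6% of TRAV8 and 59.6% of TRAV3 values above 0 were 20 counts or fewer, about 1 estimated molecule.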
